A study of Homo sapiens with 12 samples.

Results

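The transition zone is the stretch at the base of the primary cilium, just above the basal body, where Y-shaped links join the microtubules to the membrane and where proteins are sorted on their way in and out. Its membrane and soluble proteins form the MKS/B9 complex, and RPGRIP1L is one of the scaffold proteins on which that complex is placed. Mutations in these genes cause Joubert and Meckel syndromes, and cells that lose them build cilia whose membrane holds the wrong proteins, Hedgehog receptors among them.

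TMEM237 and 9 other transition zone genes were followed in RNA sequencing libraries of TYK-nu cells, an established human line of high-grade ovarian cancer. TMEM237 was chosen by its lower intron counts with cisplatin at 72 h, so its values in any comparison that uses a 72 h library are given as a description with no test. The other 9 were taken for their place in the transition zone. Of these 10 genes, 8 had a row in the table of 17508 genes. TMEM216 and CC2D2A are not analysed here, so the counts below cover 7 genes beside TMEM237, namely B9D1, MKS1, TMEM67, TCTN1, TCTN2, TCTN3 and RPGRIP1L. All 8 passed the filters on low counts.

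The 4 groups were cells given 15 μM cisplatin, a platinum drug that cross-links DNA, or DMSO, the vehicle, for 24 or for 72 h, with 3 libraries each. All cells grew in the same medium with fetal bovine serum, and the protocols describe no serum starvation, the step often used to bring out cilia. Poly(A)-selected RNA was turned into strand-marked libraries, and the reads over the exons and over the introns of each gene were counted apart. Whether cells were ciliated was not measured. The edgeR p-values cover the spread between libraries of a single line, 3 per group, which may be technical. Those of the binomial logistic regression below leave that spread out.

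Total depth per library ran from 18526830 to 68753262 counts, with 1185012 to 4840181 of them on introns. Values below are CPM, counts scaled to a common library size after TMM normalization, exon and intron counts each by their own. They are not divided by length and are compared between libraries, not between genes, and in bulk samples fewer cells with a transcript and less of it per cell cannot be told apart. Of the markers of the tissue, KRT18 stood at 133 to 181 exon CPM, KRT8 at 11.0 to 34.5, WT1 at 1.59 to 4.19 and EPCAM at 0.117 to 1.68, whereas PAX8 had at most 2 and KRT7 at most 8 counts in a library. PECAM1, listed as an endothelial marker, lay at 1350 to 2491, while the leukocyte gene PTPRC had 0 counts in all libraries. FOXJ1, RSPH1 and CCDC39, which mark cells with motile cilia, reached at most 1, 4 and 8 counts.

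The promoters of 3 of the measured genes carried a motif that the other 5 lacked. It was looked for after the windows had been read, and the match is a description. X-box motifs, the sites of RFX factors that drive many cilium genes, are built of GTTGCC and its reverse complement GGCAAC. The windows below run 5′ to 3′ on the strand of the gene around the motif, with the motif in capitals, from RefSeq on GRCh38.p14. TCTN3 is shown at chr10:95694090-95694177 (minus strand), TCTN1 at chr12:110614089-110614158 (plus strand) and MKS1 at chr17:58219244-58219329 (minus strand).
TCTN3: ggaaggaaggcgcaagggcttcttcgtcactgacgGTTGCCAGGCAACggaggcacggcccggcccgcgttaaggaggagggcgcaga
TCTN1: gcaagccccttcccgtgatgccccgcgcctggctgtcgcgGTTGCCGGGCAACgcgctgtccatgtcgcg
MKS1: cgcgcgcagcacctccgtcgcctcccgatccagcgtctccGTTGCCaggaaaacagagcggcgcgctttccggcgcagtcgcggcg
Searched on both strands in windows from 250 bases before to 50 bases after each RefSeq gene start, GTTGCC was found for 3 of 8 measured genes and for 14.6% of all 27305 gene symbols, a gene being counted once if any of its windows held it. GTTGCC followed by GGCAAC with 0 to 3 bases between them was found for 2 of the 8, TCTN1 and TCTN3, and for 55 of all symbols (0.201%). Counted by window, the shares were 12.2% and 0.165% of all 35116 windows. From the gene starts of RefSeq, the motif began 215 bases upstream in TCTN3 and 34 bases upstream in MKS1. The GENCODE starts of these genes lie further upstream, and from them it began 1 base inside TCTN3, 102 bases inside TCTN1 and 316 bases inside MKS1. Over time the exon counts of TCTN1 rose and those of TCTN3 fell, and a link of the motif to such changes was not tested.

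TMEM237, a membrane protein that is needed for transition zone assembly, had like levels of exon counts in all 4 groups, while its intron counts were lowest with cisplatin at 72 h. The gene (ENSG00000155755) lies at chromosome 2, 201620184 to 201643570 on the minus strand of GRCh38, with 18 introns of 15307 bases in all. No intron base of it lies under an annotated exon of another gene on either strand, although the processed pseudogene ENO1P4 overlaps its exons and a long noncoding RNA its start.

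TMEM237 exon CPM were 200, 224 and 210 in DMSO at 24 h and 214, 199 and 219 in cisplatin at 24 h. At 72 h they were 198, 230 and 205 in DMSO and 208, 211 and 208 in cisplatin. The 4 groups overlapped, with group means between 209 and 211. Intron CPM were 221, 250 and 163 in DMSO and 247, 209 and 271 in cisplatin at 24 h, so the groups overlapped there as well. At 72 h they were 235, 279 and 241 in DMSO (mean 252 ± 23.9 SD, n = 3) and 164, 172 and 156 in cisplatin (mean 164 ± 8.38 SD, n = 3). All 3 cisplatin libraries at 72 h lay below all 3 DMSO libraries of that time, by −0.61 on the log2 scale (SE 0.11), which are the values that chose the gene. The lowest DMSO library at 24 h, at 163, lay within the range of the 72 h cisplatin libraries. Raw intron counts behind these values were 231 to 803 per library.

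**Figure D1:**
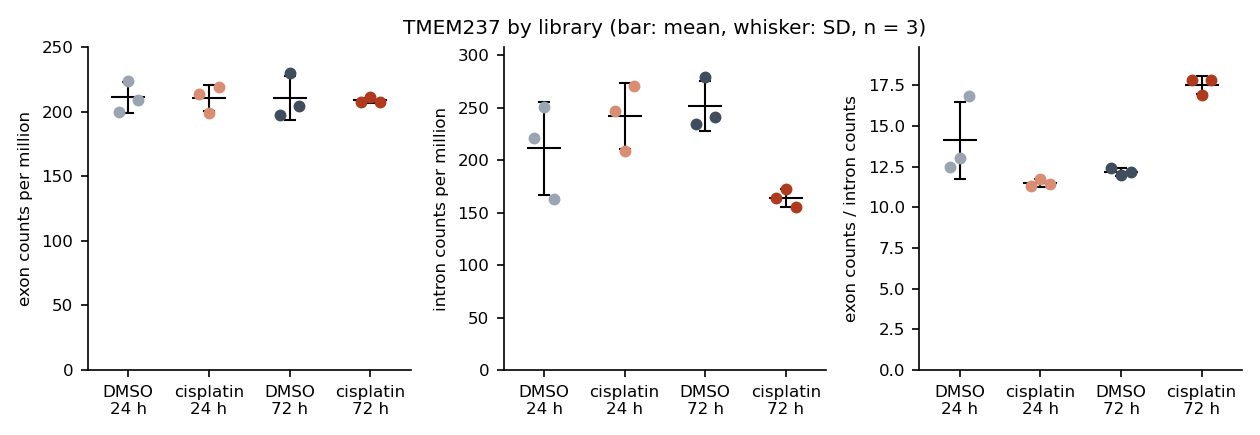
TMEM237 in each of the 12 libraries, as exon CPM, intron CPM and exon counts divided by intron counts (vertical axes), by group (horizontal axis). Points are libraries, bars group means and whiskers SD (n = 3); exon CPM stay between 198 and 230, whereas the 3 cisplatin libraries at 72 h have 156 to 172 intron CPM.

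In TMEM237 the ratio of exon to intron counts was lower with cisplatin at 24 h, which edgeR did not call, and higher at 72 h. The 72 h ratio holds the intron counts that chose the gene and is no further support for them. At 24 h the ratio was 12.5, 13.03 and 16.8 in DMSO and 11.3, 11.8 and 11.4 in cisplatin, so every cisplatin library lay below every DMSO library. At 72 h it was 12.4, 11.96 and 12.2 in DMSO and 17.8, 16.9 and 17.8 in cisplatin, the reverse order. DMSO replicate 3 at 24 h, at 16.8, stood closer to the cisplatin libraries at 72 h than to the other two of its own group.

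At 24 h, where the libraries had no part in the choice of the gene, cisplatin and DMSO were tested. The edgeR fits took their spread from all 12 libraries, so those of 72 h had a part in the standard errors. Exon counts differed by −0.0051 (log2, SE 0.0588, edgeR adjusted p = 0.9997) and intron counts by 0.17 (SE 0.12, adjusted p = 0.965). The ratio differed by −0.27 (SE 0.12, adjusted p = 0.777) in the edgeR fit, which takes up the spread between replicates and called 0% of 9393 genes, with 595 at an unadjusted p under 0.05. In the binomial logistic regression, the method of the study, the ratio differed by −0.24 (adjusted p = 0.00248), among the 11.5% of 9678 genes called, of which 1036 went down and 74 up. That model counts reads as independent and leaves out the spread between libraries. With a dispersion estimated per gene (quasi-binomial) the adjusted p was 0.882, and without DMSO replicate 3 the binomial difference was −0.15 (adjusted p = 0.101).

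The splicing score, which is the log2 ratio of the summed exon/intron ratios of treated to control libraries, was −0.30 ± 0.0287 at 24 h and 0.52 ± 0.0449 at 72 h for TMEM237 (SD of the 3 cisplatin libraries, each against the control mean). The control libraries' own spread is not in that SD. At 24 h the control mean includes DMSO replicate 3, with the highest ratio of its group at 16.8, and the score without it was not computed. The 72 h score of TMEM237 holds the intron counts that chose the gene. For the other 7 genes the score ran from −1.24 for TCTN2 to 0.17 for RPGRIP1L at 24 h and from −0.21 for B9D1 to 0.37 for TMEM67 at 72 h. TMEM67 and TCTN3 also had all 3 library scores above 0 at 72 h, with values of 0.0404 to 0.540 and 0.131 to 0.670. RPGRIP1L had all 3 below 0 at 72 h, from −0.171 to −0.000105, and TCTN2 had all 3 below 0 at 24 h. Of these genes only TCTN2 had ratios that did not overlap between cisplatin and DMSO. The 3 scores of a gene share the same control mean, and the share of all genes with 3 scores of the same sign was not counted.

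**Figure D2:**
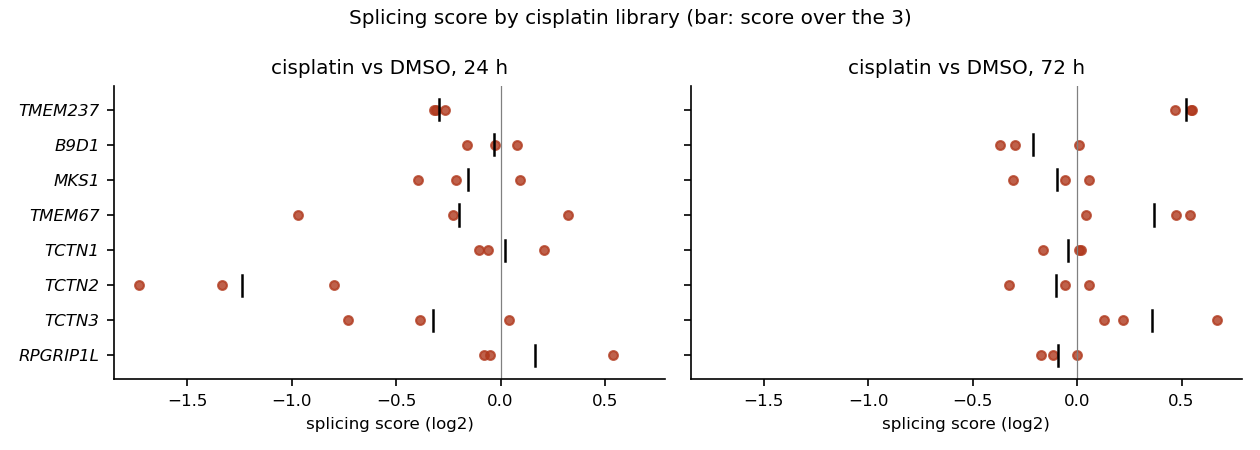
Splicing score (log2, horizontal axes) of TMEM237 and the 7 other genes at both times, cisplatin relative to DMSO. Points are the 3 cisplatin libraries, each against the mean of the DMSO libraries, and bars mark the score over the 3. The TMEM237 points lie at −0.32 to −0.26 at 24 h and 0.47 to 0.55 at 72 h. Those of 72 h hold the intron counts that chose the gene. The points of TCTN2 at 24 h, on few intron counts, spread from −1.73 to −0.80.

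Did cisplatin change the other transition zone genes? At 24 h none of the 7 passed the edgeR test for exon counts, where 0% of 10444 genes were called. At an unadjusted p under 0.05 there were 260 genes and 0 of the 7. Their log2 differences ran from −0.19 for TCTN2 to 0.09 for B9D1, with a median of 0.04 and standard errors of 0.076 to 0.156. At 72 h none of the 7 passed, against 0.0287% of all genes, and the differences ran from −0.02 for B9D1 to 0.28 for TCTN2 (median 0.08), with 1 of the 7 and 1311 of all genes at an unadjusted p under 0.05. DESeq2 called 0 of the 7 at either time, and 0 and 79 of all genes at 24 and 72 h.

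TCTN2, one of the tectonics, which are secreted or membrane proteins of the complex, came nearest at 72 h. Its exon CPM were 10.6, 8.0 and 9.47 in DMSO and 11.2, 11.98 and 11.0 in cisplatin. All 3 cisplatin libraries lay above the DMSO libraries, and the difference of 0.28 (SE 0.11) had an edgeR adjusted p of 0.279. The difference between its cisplatin effects at 72 and 24 h was 0.48 (SE 0.15, edgeR adjusted p = 0.454). No gene was called in that interaction for exon counts (0% of 10444, with 985, and 1 of the 7, at an unadjusted p under 0.05), and DESeq2 was not run on it. TCTN3 and RPGRIP1L also had 3 cisplatin libraries above 3 DMSO libraries at 72 h, by 0.11 for TCTN3 (adjusted p = 0.585), and neither was called. How many of all genes had groups apart in this way, here or in the comparisons below, was not counted. Such orders are therefore a description.

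Intron counts of the 7 genes gave no call with cisplatin either. At 24 h, 0.0208% of 9618 genes were called and the 7 ran from −0.16 for RPGRIP1L to 0.92 for TCTN2. At 72 h, 0.0416% of genes were called and the 7 ran from −0.52 for TCTN3 to 0.09 for B9D1. In each, 1 of the 7 had an unadjusted p under 0.05, beside 481 of all genes at 24 h and 622 at 72 h. DESeq2 called 0 of the 7 and, over all genes, 0 and 2. TMEM67 intron CPM were 35.7, 41.3 and 35.9 in DMSO at 72 h and 26.3, 34.5 and 27.7 in cisplatin, all 3 lower, and were not called. The interaction called 0.0416% of genes for intron counts and none of the 7, of which 1 had an unadjusted p under 0.05, beside 549 of all genes.

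Exon/intron ratios of the 7 genes were not called by edgeR with cisplatin at 24 h (0% of genes) or at 72 h (0.0213%), nor in the interaction (0% of 9393 genes, with 428 at an unadjusted p under 0.05). Of the 7, 1, 1 and 2 had an unadjusted p under 0.05 in these 3 comparisons, beside 595, 586 and 428 of all genes. The logistic regression called 1 of the 7 at each time, against 11.5% of genes at 24 h and 11.4% at 72 h. At 24 h this was TCTN2, with ratios of 29.4, 58.0 and 44.7 in DMSO and 17.5, 25.3 and 13.3 in cisplatin. All 3 cisplatin ratios were lower (log2 −1.14, logistic adjusted p = 0.005, edgeR adjusted p = 0.729), but they rest on 9 to 24 intron counts per library. Without DMSO replicate 2 at 24 h the call was lost, at −0.91. At 72 h it was TCTN3, with ratios of 10.3, 5.11 and 4.68 in DMSO and 10.7, 7.80 and 7.33 in cisplatin. These groups overlapped (log2 0.59, logistic adjusted p = 0.000373, edgeR adjusted p = 0.791), and the call was lost, at 0.32, without DMSO replicate 3 of 72 h, while without cisplatin replicate 2 of 72 h 3 of the 7 were called. The quasi-binomial model called neither, with adjusted p of 0.882 and 0.762.

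Over time in culture these genes split by direction. From 24 to 72 h in DMSO the exon counts of B9D1, MKS1, TMEM67 and TCTN1 rose and those of TCTN2, TCTN3 and RPGRIP1L fell, so all 7 passed the edgeR test. In cisplatin the same 4 rose and the same 3 fell. The background was broad, with 65.1% of 10444 genes called in DMSO and 63.5% in cisplatin, so 7 of 7 is read against those shares. The median change of the 7 was 0.31 in DMSO and 0.32 in cisplatin, and over all genes 0.01 and 0.02. Both comparisons are over time in culture, from which cell density and the age of the medium cannot be told apart. PECAM1 exon counts fell over the same time, by 0.82 in DMSO and by 0.74 in cisplatin on the log2 scale (edgeR adjusted p = 1.34e-13 and 9.69e-13). Of the 4 tissue markers tested, KRT8 and EPCAM rose in both (1.29 and 2.34 in DMSO), KRT18 fell in both (−0.37 in DMSO) and WT1 fell in DMSO (−0.78). The part of these in the time results was not tested.

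**Figure D3:**
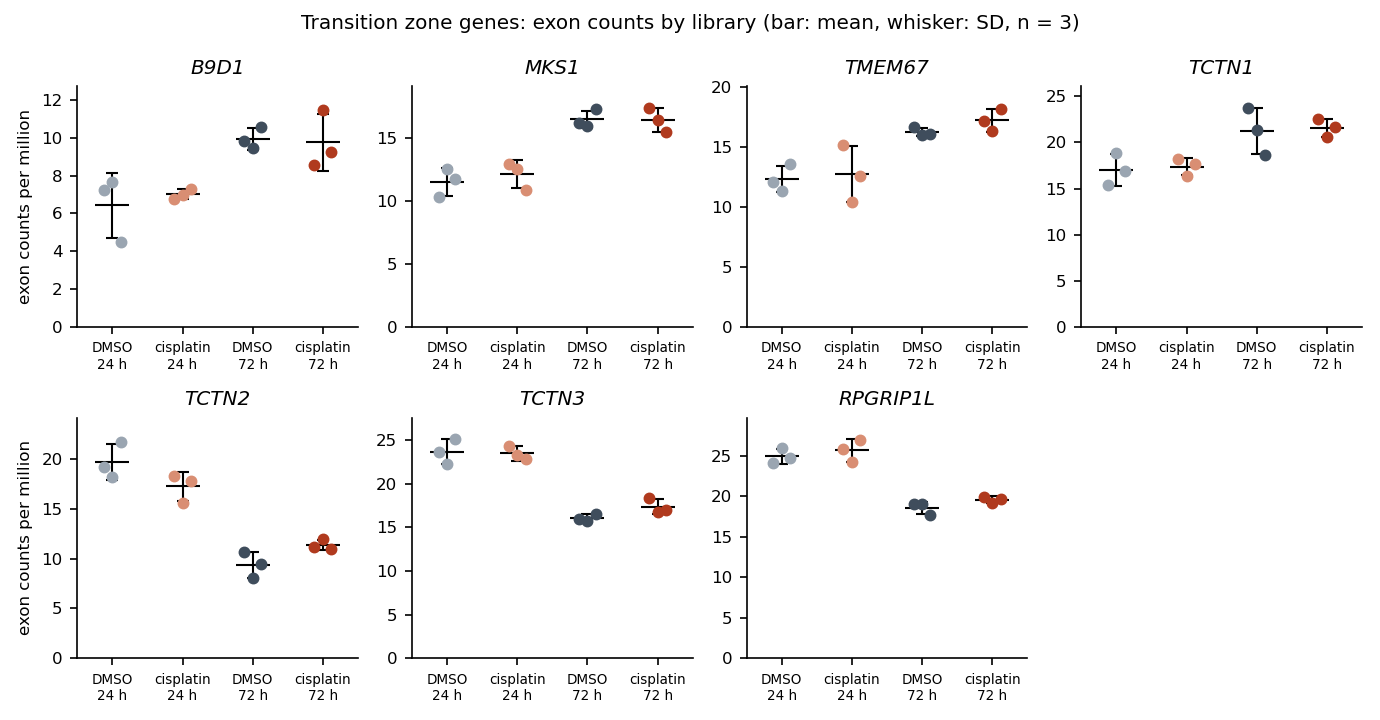
Exon CPM (vertical axes) of the 7 transition zone genes other than TMEM237 in each library, by group (horizontal axes). Points are libraries, bars means and whiskers SD (n = 3); the 72 h libraries stand above the 24 h libraries in the top row, apart from an overlap in TCTN1 in DMSO, and below them in the bottom row.

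B9D1 and MKS1 encode B9-domain proteins of the soluble part of the complex. B9D1 (ENSG00000108641, chromosome 17) had exon CPM of 7.21, 7.64 and 4.47 in DMSO at 24 h and 9.83, 9.44 and 10.6 at 72 h, with no overlap. It rose by 0.60 (log2, SE 0.15, adjusted p = 0.000983) in DMSO and by 0.49 (SE 0.14, adjusted p = 0.00488) in cisplatin, where leaving out replicate 2 of 72 h gave 0.34 and no call. MKS1 (ENSG00000011143, chromosome 17) had 10.4, 12.6 and 11.7 in DMSO at 24 h and 16.2, 16 and 17.3 at 72 h. It rose by 0.52 in DMSO (SE 0.10, adjusted p = 5.95e-05) and by 0.43 in cisplatin (adjusted p = 0.000344). B9D1 overlaps EPN2 and MAPK7 on the opposite strand and MKS1 overlaps LPO. In the introns of B9D1, 907 bases lie under exons of the opposite strand and 69 under those of another gene on its own strand. Since the strand option of the counting is not stated, reads from such partners cannot be told apart.

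TMEM67, also called meckelin, is a membrane protein shaped like a receptor. Its exon CPM (ENSG00000164953) were 12.1, 11.4 and 13.6 in DMSO at 24 h and 16.7, 16.04 and 16.1 at 72 h. In cisplatin they were 15.2, 10.5 and 12.6 at 24 h and 17.2, 16.3 and 18.2 at 72 h. The 72 h libraries lay above the 24 h libraries in both, by 0.41 (SE 0.11, adjusted p = 0.00247) in DMSO and 0.44 (SE 0.11, adjusted p = 0.000973) in cisplatin.

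The 3 tectonics did not move together. TCTN1 (ENSG00000204852, chromosome 12) rose from 15.3, 18.8 and 16.9 to 23.7, 21.3 and 18.7 exon CPM in DMSO, with 1 library of 72 h inside the range of 24 h. Its change was 0.31 in DMSO (SE 0.10, adjusted p = 0.00678), a call lost without DMSO replicate 1 of 72 h, at 0.23, and 0.32 in cisplatin (adjusted p = 0.0055). TCTN2 (ENSG00000168778, chromosome 12) fell the most of the 7, from 19.1, 18.2 and 21.7 to 10.6, 8.0 and 9.47 in DMSO. That is 0.478-fold of the 24 h level (log2 −1.07, SE 0.11, adjusted p = 5.32e-09). In cisplatin it went from 18.3, 15.6 and 17.8 to 11.2, 11.98 and 11.0, or 0.665-fold (log2 −0.59, SE 0.10, adjusted p = 2.44e-05). TCTN3 (ENSG00000119977, chromosome 10) fell from 23.7, 22.3 and 25.1 to 15.9, 15.7 and 16.5 in DMSO (log2 −0.55, SE 0.08, adjusted p = 1.69e-06) and by 0.43 in cisplatin (adjusted p = 3.43e-05). No group of 24 h overlapped one of 72 h for TCTN2 or TCTN3.

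RPGRIP1L (ENSG00000103494, chromosome 16), the scaffold, fell from 24.1, 25.9 and 24.7 exon CPM to 19.0, 19.0 and 17.7 in DMSO. In cisplatin it went from 25.8, 24.2 and 27.0 to 19.9, 19.1 and 19.7. The groups did not overlap, and the log2 changes were −0.43 (SE 0.08, adjusted p = 3.26e-05) and −0.39 (SE 0.07, adjusted p = 8.53e-05). FTO lies opposite the start of RPGRIP1L. In the introns of RPGRIP1L, 561 bases lie under a long noncoding RNA on the same strand, whose reads cannot be told apart. For TCTN1, HVCN1 lies on the opposite strand and is not analysed here.

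Intron counts of some of these genes changed as well, where 33.4% of 9618 genes were called over time in DMSO and 31.8% in cisplatin. Of the 7, 4 were called in DMSO and 3 in cisplatin. B9D1 rose in both, from 53.9, 54.3 and 55.1 to 91.4, 78.1 and 70.2 intron CPM in DMSO (log2 0.54, SE 0.15, adjusted p = 0.00372) and by 0.56 in cisplatin (adjusted p = 0.00182). RPGRIP1L fell in both, from 75.5, 91.9 and 98.9 to 53.9, 53.4 and 55.5 in DMSO (log2 −0.70, SE 0.15, adjusted p = 0.000219) and by 0.46 in cisplatin (adjusted p = 0.0128). The cisplatin call for RPGRIP1L was lost without replicate 1 of 24 h, at −0.35, or replicate 3 of 72 h, at −0.40.

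TMEM67 introns rose in DMSO from 20.1, 25.4 and 17.0 to 35.7, 41.3 and 35.9 (log2 0.83, SE 0.23, adjusted p = 0.00276) and MKS1 introns from 37.0, 37.6 and 28.3 to 52.7, 42.9 and 51.0 (log2 0.50, SE 0.18, adjusted p = 0.0266). MKS1 lost its call without DMSO replicate 3 of 24 h or replicate 1 or 3 of 72 h, at 0.39, 0.45 and 0.46, and with intron counts scaled by the library sizes of the exon counts, at 0.43 (adjusted p = 0.0672). In cisplatin TCTN2 introns fell by 1.04 on the log2 scale (SE 0.37, adjusted p = 0.0253), on 15 to 27 intron counts per library, and leaving out cisplatin replicate 1 or 3 of 24 h, or replicate 1 or 2 of 72 h, ended the call (−1.03 to −0.75). Without cisplatin replicate 1 of 24 h, only 1 of the 7 was called, and that was B9D1. TCTN1 introns, at 83.8 to 96.8 in DMSO and 77.6 to 98.1 in cisplatin, overlapped between the 2 times while its exon counts rose.

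**Figure D4:**
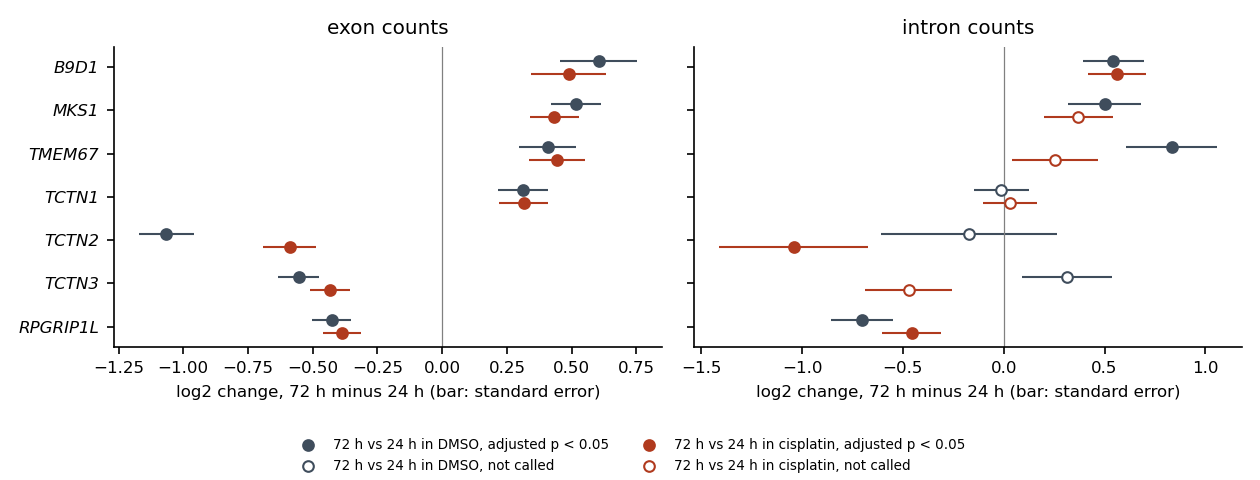
Log2 change from 24 to 72 h (horizontal axes) of exon and intron counts of the 7 transition zone genes, in DMSO and in cisplatin. Points are edgeR estimates, bars standard errors, and filled points have an adjusted p under 0.05; all exon points are filled, with 4 genes above 0 and 3 below, whereas 7 of the 14 intron points are filled.

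The exon/intron ratio over time gave no edgeR call among the 7, against 11.5% of 9393 genes in DMSO and 12% in cisplatin. An unadjusted p under 0.05 was seen for 2 of the 7 in DMSO and 1 in cisplatin, beside 2367 and 2554 of all genes. The median over all genes was 0.10 and 0.11. The logistic regression called 3 of the 7 in DMSO (33.7% of all genes) and 1 in cisplatin (40.6%). TCTN1 ratios rose by 0.35 in DMSO (adjusted p = 0.00368) and 0.38 in cisplatin (adjusted p = 0.000341). RPGRIP1L rose by 0.31 (adjusted p = 0.0193) and TCTN3 fell by 0.84 (adjusted p = 3.02e-07) in DMSO. The quasi-binomial model called none of these, with adjusted p of 0.162 to 0.422. Without DMSO replicate 3 of 24 h, TCTN1 (0.27) and RPGRIP1L (0.21) were not called in DMSO, nor without replicate 1 of 72 h (0.24 and 0.28), nor RPGRIP1L without replicate 2 of 72 h (0.29). The edgeR adjusted p of TCTN3 in DMSO was 0.0508.

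Genes of the rest of the cilium were set beside them in 6 lists, 95 genes with a row and 86 tested for exon counts. None was called for exon counts with cisplatin, and DESeq2 called 0. An unadjusted p under 0.05 was seen for 1 of the 86 at 24 h and for 3 at 72 h, beside 260 and 1311 of all 10444 genes. Exon/intron ratios were called by edgeR for none of 81 at either time, with 3 and 5 at an unadjusted p under 0.05, beside 595 and 586 of all 9393 genes. The logistic regression called 6 of 81 at 24 h and 8 of 83 at 72 h (7.41% and 9.64%, beside 11.5% and 11.4% of all genes), and the quasi-binomial model none of these. At 24 h the ratios of CEP162, RAB11FIP3, INPP5E, CEP164 and EHD1 were lower (−1.09 to −0.15) and that of BBS2 higher (0.32), and at 72 h all 8 were lower, from −0.74 for TMEM231 to −0.17 for CEP164. Over time in DMSO, exon counts of 30 rose and 15 fell (52.3%), and in cisplatin 31 rose and 15 fell (53.5%), beside 65.1% and 63.5% of all genes. Over all genes the directions were even, with 3404 higher and 3392 lower in DMSO and 3341 and 3295 in cisplatin. The 20 other transition zone genes tested had 6 calls in DMSO (30%) and 8 in cisplatin (40%). KIAA0586, a centrosomal protein needed to build cilia, fell by 0.75 (adjusted p = 2.67e-08) and TMEM80 rose by 1.07 (adjusted p = 0.000117) in DMSO, and SPATA7 rose by 0.66 and TMEM231, another membrane protein of the complex, by 0.55.

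Intraflagellar transport, which carries cargo along the cilium, had 23 genes tested, of which 12 rose and 2 fell in DMSO (60.9%) and 11 rose and 2 fell in cisplatin (56.5%), beside the same 65.1% and 63.5% of all genes. IFT140, a subunit of the retrograde IFT-A complex, went from 6.36 ± 0.707 to 14.0 ± 1.95 exon CPM in DMSO (mean ± SD, n = 3, log2 1.15, adjusted p = 1.04e-08). IFT27 and IFT43 rose by 0.98 and 0.92 there, while IFT25, the partner of IFT27, fell from 48.9 ± 3.90 to 32.5 ± 2.30 (log2 −0.59, adjusted p = 4.49e-07) and TTC26 fell by 0.53. The list of the BBSome, a coat that sorts membrane cargo, also holds BBS12 and MKKS, chaperonin-like proteins that help to assemble it. Of its 10 genes, 5 rose and 1 fell in DMSO (60%, against 65.1% of all genes), and 5 rose and 2 fell in cisplatin (70%, against 63.5%). In DMSO BBS12 rose by 0.63 and MKKS fell by 0.21, a call lost without DMSO replicate 3 of 24 h or replicate 1 or 3 of 72 h (−0.18 to −0.15).

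Among 14 genes that set up the distal appendages and start the cilium, 4 rose and 5 fell in DMSO and 5 rose and 4 fell in cisplatin (64.3% in each, against 65.1% and 63.5% of all genes). In DMSO CCP110, which caps centrioles and blocks cilium growth, fell from 43.0 ± 3.25 to 24.9 ± 1.16 exon CPM (log2 −0.79, adjusted p = 6.09e-09), and its partner CEP97 fell by 0.45. The kinase MARK4 rose by 0.56 (adjusted p = 1.58e-06), TTBK2, the kinase that lets CCP110 be removed, by 0.53 (adjusted p = 0.000104) and OFD1, a centriole protein, by 0.52, whereas RAB8A, a GTPase of ciliary membrane delivery, fell by 0.55 (adjusted p = 6.49e-09). Of 10 cilium motor genes, 4 rose and 2 fell both in DMSO and in cisplatin (60%). In DMSO DYNC2I2 and KIF3B fell by 0.75 and 0.63 and DYNC2LI1 rose by 0.90. KIF17 had 1 to 3 counts in a DMSO library at 24 h and 12 to 72 at 72 h, so its fold is not given. In the Hedgehog pathway, which signals through the cilium, 9 of 15 genes passed the filter, and 1 rose and 3 fell in DMSO (44.4%) and 1 rose and 2 fell in cisplatin (33.3%). PTCH1, the receptor and a target of the pathway, rose by 0.32 in DMSO (adjusted p = 0.036), and CDON, SUFU and DHH fell by 0.42 each. The PTCH1 call was lost without DMSO replicate 2 or 3 of 24 h or replicate 1 or 3 of 72 h (0.19 to 0.30). That of SUFU was lost without replicate 1 or 2 of 24 h or replicate 2 or 3 of 72 h (−0.41 to −0.34).

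**Figure D5:**
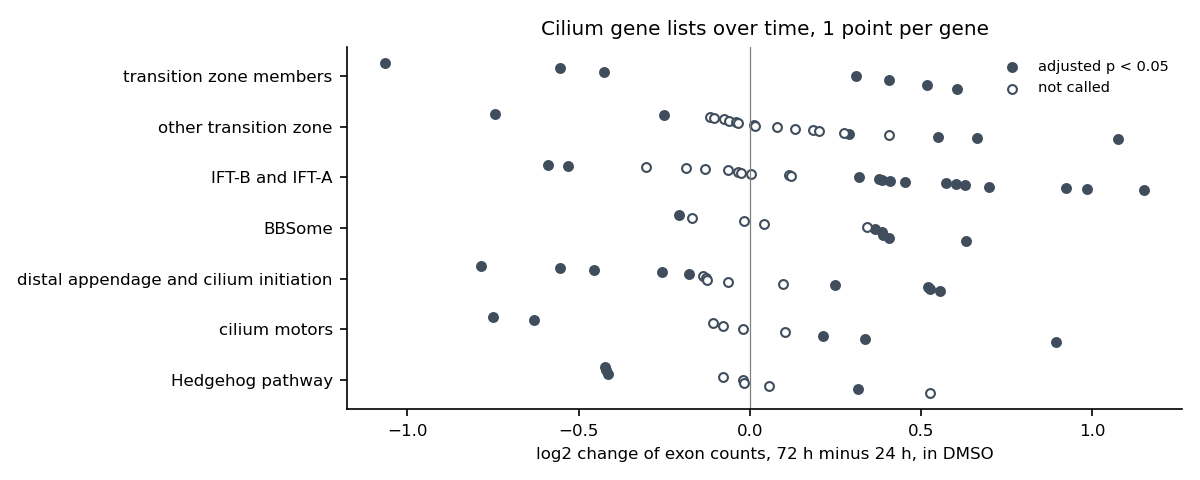
Log2 change of exon counts from 24 to 72 h in DMSO (horizontal axis) for the 7 transition zone genes and for 6 lists of other cilium genes (vertical axis), 1 point per gene. Filled points have an edgeR adjusted p under 0.05; all 7 transition zone genes are filled, and in every list some genes lie above and some below 0 (KIF17, with at most 3 counts at 24 h, is not drawn).

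The genes whose log2 intron CPM followed those of TMEM237 most closely over the 12 libraries were CNBP (Pearson r = 0.87), RAD51C (0.86), POLR2F (0.83), RPL9 (0.78) and the pseudogene PI4KAP2 (0.78), of 6432 genes compared. TMEM237 was chosen on some of these values, the libraries share depth and group, and no p is given. Of the 7 genes above, TCTN2 had too few intron counts to be compared and TCTN3 stood highest, at rank 661 (r = 0.36). By exon counts, which hardly vary for TMEM237, the closest of 9554 genes were TTC30B (0.81), NDEL1 (0.80), IFT81 (0.78), AIMP1 (0.77) and PFDN4 (0.77), and of the 7 genes RPGRIP1L ranked highest, at 1925 (r = 0.19).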

How the data were processed

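Poly(A)-selected RNA of TYK-nu cells was sequenced in 12 libraries. The authors trimmed reads with Trim Galore 0.6.0, aligned them to GRCh38 with HISAT2 2.1.0 and counted fragments with HTSeq against exon and intron annotations built from Ensembl release 98. The deposited values are raw exon and intron counts per gene, not normalized. The strand option of the counting and any filter on genes are not given in the sources used here.

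Symbols and positions came from GENCODE release 44 for 17485 of 17508 genes. Exon and intron counts were each tested with edgeR 4.0.16 (glmQLFit and glmQLFTest, filterByExpr, TMM, all 12 libraries in 1 fit) in R 4.3.3. The ratio was fitted with 1 term per library and 1 library size for both kinds of count, over genes reaching 10 counts of each kind in 3 or more libraries. The study's logistic regression (binomial, Wald) was run on genes with no 0 in the 6 libraries compared, a filter chosen here. Benjamini-Hochberg adjustment ran over all genes tested, and an adjusted p under 0.05 was called. The tests were checked on simulated counts with spread between replicates, for which the binomial regression has no term. There it called a larger share of the unchanged genes than the edgeR fits did, so its calls are given beside those of the other models. Exon and intron counts were drawn separately in the simulation, so it does not show how far the regression overcalls in these data. DESeq2 1.42.0, exon library sizes for intron counts and other alternatives were tried, and groups came from the sample labels. Likeness to TMEM237 used log2(CPM + 0.5) and genes with a mean of at least 50 counts. Tables and plots used Python 3.11.15, numpy 2.4.6, pandas 2.3.3 and matplotlib 3.10.9.

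The genes and lists were chosen with earlier results of these data known. All listed genes with a row were named. Other cilium genes were to be named when called by edgeR with cisplatin for exon or intron counts, which none was, or as up to 3 per list and direction over time, of which examples are shown. Those named for logistic calls were added after their values were seen. Replicates of a group differed by more than sampling noise (chi-square per degree of freedom 3.92 to 22.4).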

Additional observations from a re-analysis of the deposited data

How the results depend on the processing

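With cisplatin, the counts of the 7 transition zone genes and of the 86 other cilium genes called for exon counts stayed at 0 under every alternative run, as did the edgeR ratio and intron counts of the 7. Over time, exon calls were 6 to 7 with 1 library left out. Intron calls in cisplatin were 1 to 3 of 7 with 1 library left out. The edgeR ratio over time in DMSO gave 1 call with no filter, with the replicate number as a block (replicate block) and with only the 6 libraries compared, and 0 to 1 with 1 library left out. The logistic counts fell to 0 under the quasi-binomial model in all 4 comparisons, and to 0 at 24 h with at least 10 counts in each library. With 1 library left out they were 1 to 2 at 24 h, 0 to 3 at 72 h, 1 to 4 over time in DMSO and 1 to 2 in cisplatin.

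Same-numbered libraries did not all deviate together, and no source used here gives a meaning to the numbers. With the block, TMEM237 at 24 h gave −0.00305 for exon counts, 0.18 for intron counts and −0.27 for the ratio, and the other 7 kept 0 calls with cisplatin. TMEM237 exon counts at 24 h ran from −0.0433 to 0.0404 with 1 library left out. Small changes that were never called changed sign when a library was left out, and the cause was not tested. These were the cisplatin differences of exon counts of TCTN3 at 24 h (−0.0522 to 0.0306), of B9D1 at 24 h (−0.0861 to 0.231) and at 72 h (−0.167 to 0.0606), and of intron counts of B9D1 (−0.00515 to 0.188) and TCTN2 (−0.174 to 0.316) at 72 h. The TMEM237 intron difference at 72 h, on the values that chose the gene, lay between −0.66 and −0.53 in all alternatives. That range is a description and no support for the difference. Alternatives for single genes were tabulated for called values, the extremes of each cisplatin comparison, TCTN2 and TCTN3. That set was narrowed after the alternatives had been seen, and small uncalled differences of other genes changed sign too. Leave-one-out was not run for the interaction. For the logistic calls of other cilium genes, only the quasi-binomial alternative was tabulated. Low intron counts limit TCTN2 most.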

Other observations

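MPP4, a scaffold gene of photoreceptors that lies next to TMEM237 on the same strand, had 30.3 ± 0.856 intron CPM in DMSO at 24 h and 86.7 ± 6.59 at 72 h (mean ± SD, n = 3). In cisplatin it had 29.3 ± 4.30 at 24 h and 97.7 ± 9.45 at 72 h. Its exon counts were 2.87 ± 0.593 and 6.81 ± 1.32 CPM in DMSO. C2CD6, the neighbour on the other side, had 0 exon counts in all libraries and 0 to 18 intron counts. MPP4 was not part of the alternatives tried.

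Promoter windows of other cilium genes held GTTGCC or its reverse complement in 8 of 19 for intraflagellar transport, 6 of 11 for the BBSome and 8 of 15 for the distal appendages and cilium initiation. The same was seen in 7 of 20 for other transition zone genes, 3 of 9 for the motors and 2 of 13 for the Hedgehog pathway. Over all 27305 gene symbols the share was 14.6%. The paired motif was found in none of these lists.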
